A study of Rattus norvegicus with 18 samples.

Results

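The 8 genes described here encode proteins of skeletal muscle fibres: Acta1, Tnnt3 and Tnni2 of the thin filament, Myh4 and Mylpf of the thick filament, Actn3 of the Z-disc, and the soluble proteins Pvalb and Ckm. They were chosen by name, with earlier results of these data known. All 8 of them were found among the 17337 genes of the count table and passed the filter on low counts. The libraries hold polyadenylated RNA of wild-type rats (genotype WT), from cells freed out of marrow and bone within 1 mm of a printed scaffold in a critical-sized defect of the radius. The scaffolds were bare polycaprolactone (PCL), PCL carrying calcium phosphate microparticles (CaP) and PCL carrying amorphous calcium phosphate chitosan nanoparticles (ACPC-NP). Each scaffold was sampled at weeks 2 and 6 after implantation, with 3 libraries in each of the 6 groups and 18 libraries in all. Every group carries an implant on PCL, so there is no sample of intact bone, and the labels give no age, sex or animal for a library. Marrow cells were treated with red cell lysis buffer and digested with Type IV collagenase, dispase and DNase, bone pieces with Type I collagenase, and the released cells were pooled. The labels name marrow and bone as the source and do not mention muscle.

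In striated muscle, thin filaments of actin slide along thick filaments of myosin, and the thin filaments are anchored at the Z-disc. Calcium binds the troponin complex, which opens the actin filament to myosin heads, and calcium is then buffered and pumped back into stores while creatine kinase regenerates the ATP that was spent. Acta1 and Ckm are made in fast and slow fibres and the other 6 mainly in fast ones, and the 8 genes are switched on late in muscle differentiation by factors of the MyoD, MEF2 and SRF families.

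Total counts ran from 18880604 to 27186587 per library, the lowest being ACPC-NP week 6 replicate 3. The marrow and bone origin was visible in every library: summed CPM (the count relative to a TMM-scaled library size, per 1e6 counts) ran from 14240 to 37620 for neutrophil markers, from 23440 to 71600 for erythroid markers and from 4696 to 26320 for osteoblast markers. The summed level of the 8 muscle genes ran from 22.9 to 572 CPM. As a share of all counts in a library, the 8 genes held from 0.00238% in ACPC-NP week 2 replicate 1 (95% Wilson interval 0.00220% to 0.00259%) to 0.0582% in ACPC-NP week 6 replicate 3 (0.0571% to 0.0593%). All 9 week 2 libraries were at or below 0.00794%, and the libraries next to the highest were CaP week 6 replicate 1 at 0.0199% and PCL week 6 replicate 1 at 0.0182%. These intervals cover counting error only. In ACPC-NP week 2 replicate 3 the scaling weighs most: its share was 0.00511%, yet its summed level of 72.3 CPM was close to the 78.4 CPM of PCL week 2 replicate 3, whose share was 0.00794%. In bulk RNA, fewer muscle cells and less muscle RNA per cell cannot be told apart.

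Promoters are shown for 3 members as background, since the 8 genes are known targets of shared factors. Whether these factors had a part in the levels measured here was not tested. The sequences are from RefSeq, build GRCr8, and span 250 bases before to 50 bases after the annotated start, written 5′ to 3′ along the gene's strand. Of the 8 genes, 7 were matched, with Mylpf under its current symbol Myl11. The counts were made on another build, so the positions are not those of the counted reads. Capitals mark matches to the E-box CANNTG, which MyoD-family factors bind, the TATA box TATAAA, the CArG box, which SRF binds, and the MEF2 site, all searched on both strands.
Acta1, chr19:68784145-68784444, minus strand: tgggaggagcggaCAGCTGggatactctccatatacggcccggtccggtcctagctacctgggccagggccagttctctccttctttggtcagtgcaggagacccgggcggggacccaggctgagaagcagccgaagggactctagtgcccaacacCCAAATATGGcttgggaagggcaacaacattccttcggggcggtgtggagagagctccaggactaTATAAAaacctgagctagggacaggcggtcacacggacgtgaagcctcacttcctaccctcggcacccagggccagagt
Ckm, chr1:88189211-88189510, plus strand: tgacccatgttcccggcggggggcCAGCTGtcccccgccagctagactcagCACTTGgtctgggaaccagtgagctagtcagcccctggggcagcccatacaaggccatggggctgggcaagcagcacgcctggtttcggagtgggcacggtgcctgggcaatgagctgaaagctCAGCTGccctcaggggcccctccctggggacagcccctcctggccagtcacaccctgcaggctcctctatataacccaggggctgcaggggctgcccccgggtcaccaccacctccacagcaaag
Myh4, chr10:52421898-52422197, plus strand: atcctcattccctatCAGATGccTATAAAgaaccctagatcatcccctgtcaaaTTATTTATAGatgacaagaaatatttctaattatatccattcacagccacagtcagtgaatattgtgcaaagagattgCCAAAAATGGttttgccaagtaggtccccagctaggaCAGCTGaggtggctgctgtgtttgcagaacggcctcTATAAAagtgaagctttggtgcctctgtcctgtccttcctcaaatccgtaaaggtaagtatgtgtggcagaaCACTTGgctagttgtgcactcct

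The Acta1 window held a CArG box at position -94 from the start and a TATA box at -29. The Ckm window held 3 E-boxes, at positions -226, -199 and -75. The Myh4 window held 3 E-boxes, a CArG box at -118 and a MEF2 site at -196, and the TATA box match at -193 lies inside that MEF2 site. Among the other matched members, Pvalb had 3 E-boxes, Mylpf 2, and Tnni2 1 E-box and 1 TATA box, while Actn3 had no match to these letters in its window. Of all 33469 promoters of the same length, 72.1% held an E-box, 14.2% a TATA box, 3.29% a MEF2 site and 1.64% a CArG box. A match is a description of the sequence and does not show binding.

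Thin filament genes stood higher at week 6 than at week 2 in most libraries. Acta1, the actin of skeletal muscle fibres, was at 29.4, 23.9 and 40.1 CPM around PCL, 16.6, 24.8 and 21.3 around CaP, and 7.87, 24.1 and 27.7 around ACPC-NP at week 2. At week 6 Acta1 was at 93.2, 65.2 and 46.5 CPM around PCL, 89.0, 23.0 and 52.5 around CaP, and 40.0, 25.7 and 276 around ACPC-NP. The highest library was ACPC-NP week 6 replicate 3, the lowest ACPC-NP week 2 replicate 1, and 6 of the 9 week 6 libraries lay above all week 2 libraries. Ordered by mean, Acta1 was at 114 ± 140.5 CPM (SD, n = 3 in every group) around ACPC-NP, 68.3 ± 23.5 around PCL and 54.8 ± 33.0 around CaP at week 6, then 31.2 ± 8.25 around PCL, 20.9 ± 4.07 around CaP and 19.9 ± 10.6 around ACPC-NP at week 2. The ranges of neighbours in that order overlapped in each case. Without replicate 3, ACPC-NP at week 6 had a mean of 32.9 CPM and moved below both PCL and CaP of that week.

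Tnnt3, the fast troponin T that ties the troponin complex to tropomyosin, was at 13.6, 16.9 and 9.53 CPM around PCL, 13.6, 14.3 and 15.5 around CaP, and 7.56, 13.3 and 18.6 around ACPC-NP at week 2. Its week 6 levels were 29.3, 28.4 and 23.3 CPM around PCL, 30.3, 13.9 and 26.3 around CaP, and 14.3, 14.99 and 63.7 around ACPC-NP. All 3 PCL libraries of week 6 lay above every week 2 library, while ACPC-NP replicates 1 and 2 and CaP replicate 2 lay within the week 2 range. Tnni2, the fast troponin I that holds the filament off without calcium, was at 3.03, 2.93 and 3.29 CPM around PCL, 2.59, 2.59 and 1.97 around CaP, and 1.30, 3.98 and 5.84 around ACPC-NP at week 2. At week 6 Tnni2 was at 7.68, 5.98 and 6.20 CPM around PCL, 9.35, 2.00 and 9.58 around CaP, and 3.93, 3.48 and 32.6 around ACPC-NP. The same 3 libraries of week 6 were low in Tnni2, and as for Tnnt3 the highest library of week 2 in CPM was ACPC-NP replicate 3. For Tnnt3 that rank rests on the scaling. ACPC-NP week 2 replicate 3 had 332 Tnnt3 counts of 25217221, and PCL week 2 replicate 2 had 427 of 24124276.

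The thick filament genes were counted at very different depths. Mylpf, the fast regulatory light chain of myosin, was at 7.24, 6.61 and 7.91 CPM around PCL, 6.66, 6.44 and 4.81 around CaP, and 2.99, 5.40 and 7.69 around ACPC-NP at week 2. Its week 6 levels were 15.5, 11.8 and 9.98 CPM around PCL, 17.0, 5.84 and 10.3 around CaP, and 7.65, 7.54 and 60.1 around ACPC-NP. Around PCL every week 6 library was above every week 2 library, and around ACPC-NP replicate 3 alone was. Myh4, the heavy chain of the fastest fibres, had only 0 to 42 counts per library. Its levels were 0.268, 0.0792 and 0.708 CPM around PCL, 0.0822, 0.0837 and 0.158 around CaP, and 0, 0.315 and 0.0561 around ACPC-NP at week 2. At week 6 Myh4 was at 1.71, 0.831 and 0 CPM around PCL, 0.626, 0.0871 and 0.237 around CaP, and 0.555, 0.0451 and 1.67 around ACPC-NP. Myh4 was the member that broke the order of libraries: PCL week 6 replicate 1 was highest, and PCL week 6 replicate 3 had no count, which at its depth allows up to 0.127 CPM (3 counts).

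Actn3, the alpha-actinin that crosslinks actin at the Z-disc of fast fibres, was at 2.99, 2.10 and 2.87 CPM around PCL, 1.64, 2.68 and 2.13 around CaP, and 0.787, 2.09 and 1.68 around ACPC-NP at week 2. At week 6 Actn3 was at 5.88, 3.96 and 2.76 CPM around PCL, 8.90, 2.13 and 4.65 around CaP, and 6.71, 2.66 and 28.1 around ACPC-NP. Around ACPC-NP all 3 week 6 libraries lay above all 3 week 2 libraries, which for Actn3 was not so around PCL or CaP. Pvalb, parvalbumin, the calcium buffer that speeds relaxation, was at 1.57, 0.950 and 1.46 CPM around PCL, 0.452, 1.46 and 0.710 around CaP, and 0.748, 1.03 and 1.12 around ACPC-NP at week 2. At week 6 Pvalb was at 3.06, 2.41 and 1.40 CPM around PCL, 5.74, 1.35 and 4.32 around CaP, and 2.18, 1.67 and 19.9 around ACPC-NP. Week 6 levels of Pvalb were above the highest week 2 library in 7 of 9 libraries.

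Ckm, the muscle creatine kinase that rebuilds ATP from phosphocreatine, was at 9.39, 7.48 and 12.4 CPM around PCL, 5.06, 7.15 and 7.81 around CaP, and 1.61, 8.40 and 9.54 around ACPC-NP at week 2. At week 6 Ckm was at 31.4, 20.2 and 12.5 CPM around PCL, 27.3, 6.71 and 15.1 around CaP, and 14.9, 6.54 and 90.0 around ACPC-NP. CaP replicate 2 and ACPC-NP replicate 2 of week 6 stayed within the week 2 range, PCL replicate 3 was barely above it, and ACPC-NP replicate 3 stood apart, as for Acta1.

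**Figure D1:**
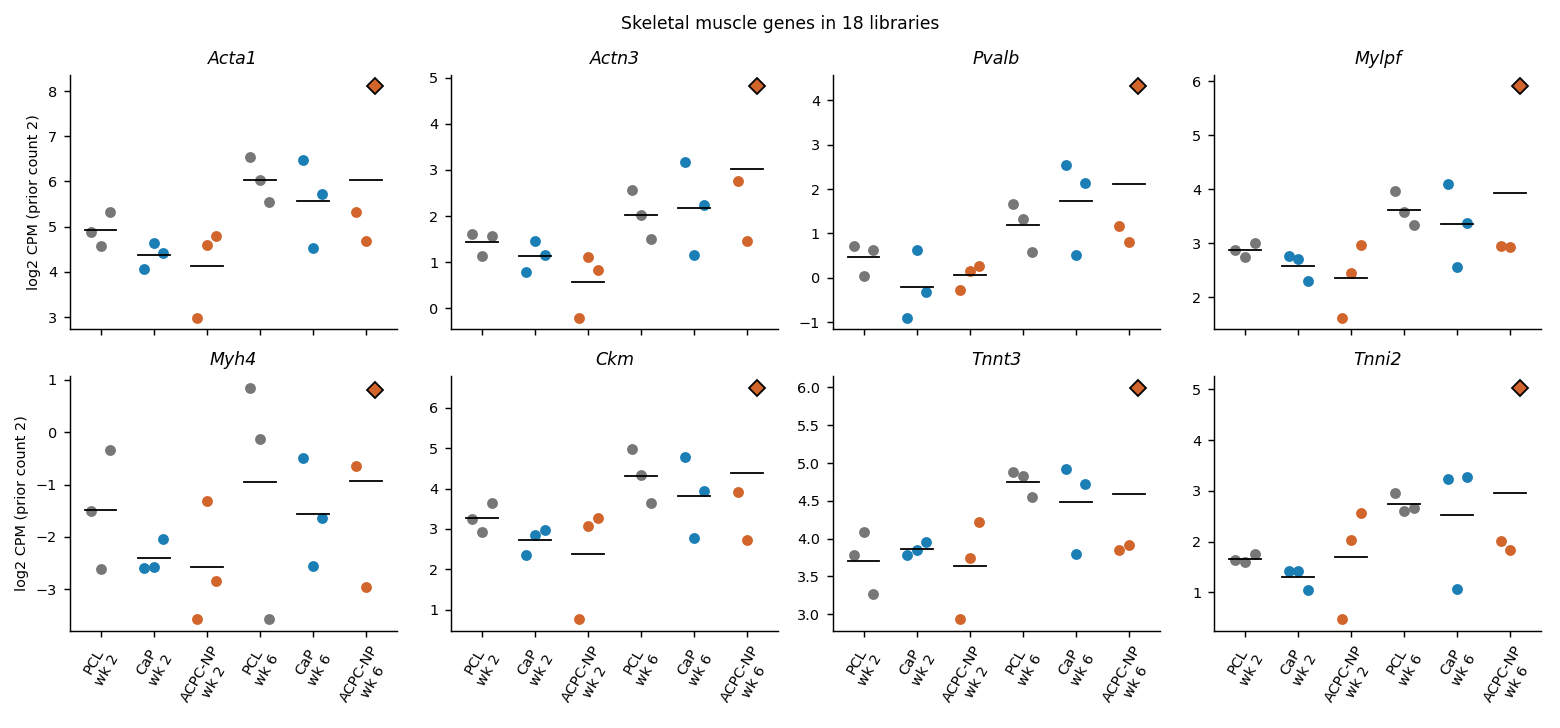
Log2 CPM (prior count 2) of the 8 muscle genes in 18 libraries, by scaffold and week, with a line at each group's mean; the diamond is ACPC-NP week 6 replicate 3. That library is the highest point for 7 of the 8 genes, and for Myh4 PCL week 6 replicate 1 is higher.

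Across the 18 libraries, ACPC-NP week 6 replicate 3 was the highest for 7 of the 8 genes and the next to highest for Myh4. Of all 11814 genes tested, 621 or 5.26% were highest in that library. The 8 genes were chosen with earlier results of these data known, so this share is a description and no test. ACPC-NP week 2 replicate 1 was the lowest for 7 of the 8, with Myh4 at 0 there and in PCL week 6 replicate 3, and Pvalb was lowest in CaP week 2 replicate 1. CaP week 6 replicate 2 ranked between 11 and 16 of 18 for every member, among the week 2 libraries.

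The members were among the more variable genes of the table. The SD of log2 CPM within groups had a median of 0.99 over the 8 genes and of 0.26 over all genes tested. It ran from 0.64 for Tnnt3 to 1.46 for Myh4, whose low counts add counting error. Without ACPC-NP week 6 replicate 3 the median over the members was 0.67, against 0.26 over all genes. The ratio of the highest to the lowest library was 55.8 for Ckm, 44.1 for Pvalb, 35.7 for Actn3, 35.1 for Acta1, 25.1 for Tnni2, 20.1 for Mylpf and 8.43 for Tnnt3, and it is not given for Myh4, which had libraries at 0. Without that library these ratios were 19.4, 12.7, 11.3, 11.8, 7.38, 5.68 and 4.01, so each was lower by more than 2-fold and Ckm still spanned the widest range.

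**Figure D2:**
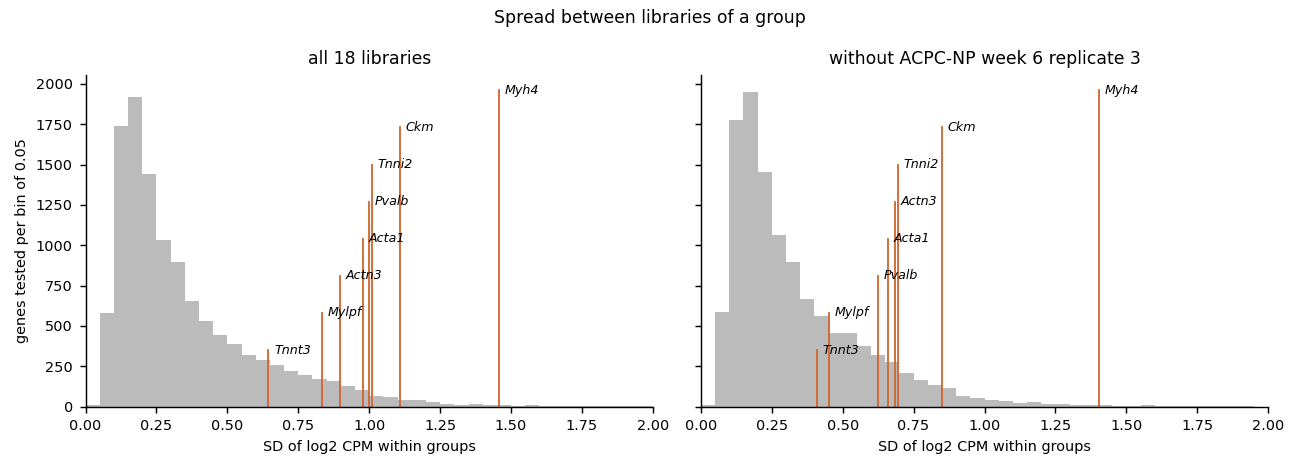
Histogram of the SD of log2 CPM within groups over all genes tested (bins of 0.05), with all 18 libraries and without ACPC-NP week 6 replicate 3; a line marks each muscle gene, and the height of a line has no meaning. The median over the 8 genes is 0.99 with all libraries and 0.67 without that library, to the right of the bulk of genes in both panels.

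Within a library, the counts of most members kept similar proportions to Acta1 while the level of Acta1 changed, Tnnt3 and Myh4 less so. The ratio of Ckm to Acta1 counts lay between 0.205 and 0.373, a 1.82-fold range, although Acta1 itself spanned 35.1-fold. In ACPC-NP week 6 replicate 3 this ratio was 0.326, near the week 6 median of 0.307 and the week 2 median of 0.313. Mylpf lay between 0.166 and 0.400 of Acta1, Actn3 between 0.0593 and 0.168, Tnni2 between 0.0820 and 0.211 and Pvalb between 0.0272 and 0.0950. Tnnt3 varied more than these, with a ratio of 0.960 in ACPC-NP week 2 replicate 1, where Acta1 was lowest, and 0.231 in ACPC-NP week 6 replicate 3, where Acta1 was highest. Myh4, counted least, ran from 0 to 0.0184 of Acta1. The median ratio of Tnnt3 was 0.672 at week 2 and 0.436 at week 6.

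**Figure D3:**
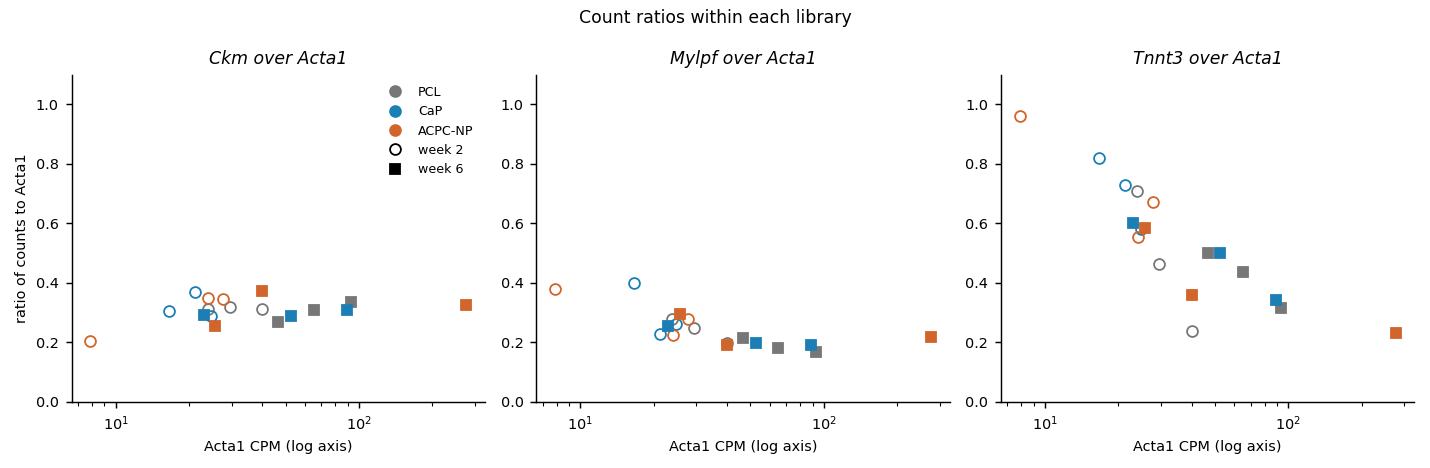
Ratio of Ckm, Mylpf and Tnnt3 counts to Acta1 counts in each library, against the CPM of Acta1 on a log axis, with colours for scaffolds, open circles for week 2 and filled squares for week 6. Both axes hold Acta1; the Ckm ratio stays between 0.205 and 0.373, while the Tnnt3 ratio runs from 0.960 in the library lowest in Acta1 to 0.231 in the highest.

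As a description of how alike the profiles were, the Pearson correlation of log2 CPM between a member and the mean of the other 7 was 0.99 for Acta1, 0.98 for Ckm, 0.96 for Mylpf, 0.95 for Actn3, 0.92 for Tnni2, 0.91 for Pvalb, 0.88 for Tnnt3 and 0.75 for Myh4 over 18 libraries. Over the 17 libraries without ACPC-NP week 6 replicate 3 it ran from 0.69 for Myh4 to 0.98 for Acta1. The points are libraries of the same groups and share their depth and scaling. Of 10081 other genes with a mean log2 CPM of at least 1, the 10 most like the mean of the members included Tnnc2 (0.98), Atp2a1 (0.98), Mybpc1 (0.98), Myl1 (0.97), Pgam2 (0.96), Mb (0.95), Myh1 (0.94), Ankrd23 (0.92) and Cryab (0.92). Tnnc2 is the calcium-binding troponin C of fast fibres, Atp2a1 the calcium pump of their stores, Myl1 a myosin light chain and Mb the oxygen store myoglobin. Of these 10 genes, 8 were again among the 10 most alike without that library.

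All 8 genes were on average higher at week 6 than at week 2, by a median of 1.65 on the log2 scale against -0.02 over all genes tested, but no member passed the adjusted threshold of 0.05 (edgeR quasi-likelihood test, Benjamini-Hochberg over all genes). In this comparison, which takes the mean of the 3 scaffolds, 0.686% of all genes were called. Acta1 differed by 1.68 ± 0.43 (SE; adjusted p = 0.101), from 24.0 ± 8.85 CPM over 9 libraries of week 2 to 79.0 ± 77.9 over 9 of week 6. The smallest p was that of Pvalb, with a difference of 1.98 ± 0.47 (adjusted p = 0.0788), from 1.06 ± 0.386 to 4.67 ± 5.90 CPM. The other members lay between 0.98 for Tnnt3 and 1.77 for Myh4, with adjusted p from 0.090 to 0.314. At an unadjusted p under 0.05, 8 of 8 members were higher at week 6, against 6.67% of all genes. That share describes a list chosen with earlier results of these data known and is no test of it. Since the libraries are not said to come from separate animals, these p-values measure the spread between libraries, which may be technical.

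The call for these genes turned on the tool and on single libraries. DESeq2 called 7 of 8 members higher, leaving out Myh4, against 3.24% of all genes in either direction, and voom with sample quality weights called Tnnt3 alone, against 13.8% of all genes. Without ACPC-NP week 6 replicate 3 the median difference of the members was 1.07 and edgeR called Pvalb (adjusted p = 0.0494), with 1.5% of all genes called. Acta1 then differed by 1.08 ± 0.28 (adjusted p = 0.0799). Without replicate 3 of ACPC-NP at both weeks, the median was 1.19 and 4 members were called, Acta1, Pvalb, Mylpf and Tnnt3, against 2.18% of all genes. Without ACPC-NP week 6 replicate 2 edgeR called Actn3 and Pvalb, with a median of 1.82 over the members and 0.384% of all genes called. All 8 differences were above 0 in each of these settings, although with voom that of Myh4 was 0.0013 (adjusted p = 0.999) and the median was 0.98.

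Around ACPC-NP the difference between the weeks had a median of 2.50 over the members, against -0.03 over all genes, and rested largely on replicate 3 of week 6. EdgeR called 0 members, and 0.00846% of all genes. Acta1 differed by 2.52 ± 0.76 (adjusted p = 0.113), and the smallest p was that of Actn3, at 3.03 ± 0.73 (adjusted p = 0.087). At an unadjusted p under 0.05, 7 of 8 members were higher at week 6, against 7.3% of all genes, the exception being Myh4. For Actn3 and Pvalb the 3 libraries of week 6 lay above the 3 of week 2, as they did for 9.23% of all genes. Without replicate 3 of week 6, the median of the members was 0.73, Acta1 differed by 0.73 ± 0.53 (adjusted p = 0.46), Actn3 by 1.63 ± 0.56 (adjusted p = 0.128) and Tnni2 by 0.01 ± 0.57. DESeq2, with all libraries, called 5 of the 8 members, against 6.65% of all genes.

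Around CaP and PCL the members were also higher at week 6 on average, without a call. For both scaffolds edgeR called 0 members and 0% of all genes, and DESeq2 and voom called 0 members. Of all genes, DESeq2 and voom called some around PCL, far more with voom, and DESeq2 a few around CaP (counts at the end). Around CaP the median of the members was 1.35, Acta1 differed by 1.39 ± 0.73 (adjusted p = 0.953), and the smallest p was that of Pvalb at 2.12 ± 0.82 (adjusted p = 0.953, unadjusted p = 0.021). Around PCL the median was 1.06, Acta1 differed by 1.13 ± 0.73 (adjusted p = 0.631), and the smallest p was that of Tnnt3 at 1.01 ± 0.49 (adjusted p = 0.526). With voom the PCL median was 0.58 and Myh4 was at -1.88 (adjusted p = 0.405), lower at week 6. PCL was the scaffold with the least overlap: for 5 of 8 members, Acta1, Mylpf, Ckm, Tnnt3 and Tnni2, all 3 libraries of week 6 lay above all 3 of week 2, against 7.76% of all genes. Around CaP, replicate 2 of week 6 stood below the week 2 median of its scaffold for Mylpf, Ckm, Tnnt3 and Tnni2.

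At week 6 the direction of the difference between ACPC-NP and the other scaffolds depended on replicate 3. With all libraries the members had a median of 0.90 above PCL, 7 of 8 being higher around ACPC-NP. Acta1 differed by 0.74 ± 0.72 (adjusted p = 0.594) and Actn3, with the smallest p, by 1.57 ± 0.68 (adjusted p = 0.195). Actn3 and Pvalb had an unadjusted p under 0.05, against 9.23% of all genes. Without replicate 3 the median was -0.86, and 7 of 8 members were lower around ACPC-NP, with Acta1 at -1.06 and Actn3 at 0.16. Against CaP the median was 1.11 with 8 of 8 members higher, Acta1 at 1.05 ± 0.72 (adjusted p = 0.636) and Actn3 at 1.25 ± 0.67 (adjusted p = 0.571). Without replicate 3 that median was -0.65 and 8 of 8 members were lower, with Acta1 at -0.74 and Actn3 at -0.16. With voom, which gives a library that departs from the others less weight, the medians were -0.03 and 0.07, with 3 and 5 of 8 members higher. In both comparisons edgeR called 0 members with and without that library, and 0% of all genes with all libraries. DESeq2 and voom called 0 members in both, while each called some of all genes, most of them with voom against PCL (counts at the end). CaP and PCL differed by a median of -0.18 at week 6, with Acta1 at -0.32 ± 0.72 and Myh4, which had the smallest p, at -1.37 ± 1.19 (adjusted p = 1 for both).

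**Figure D4:**
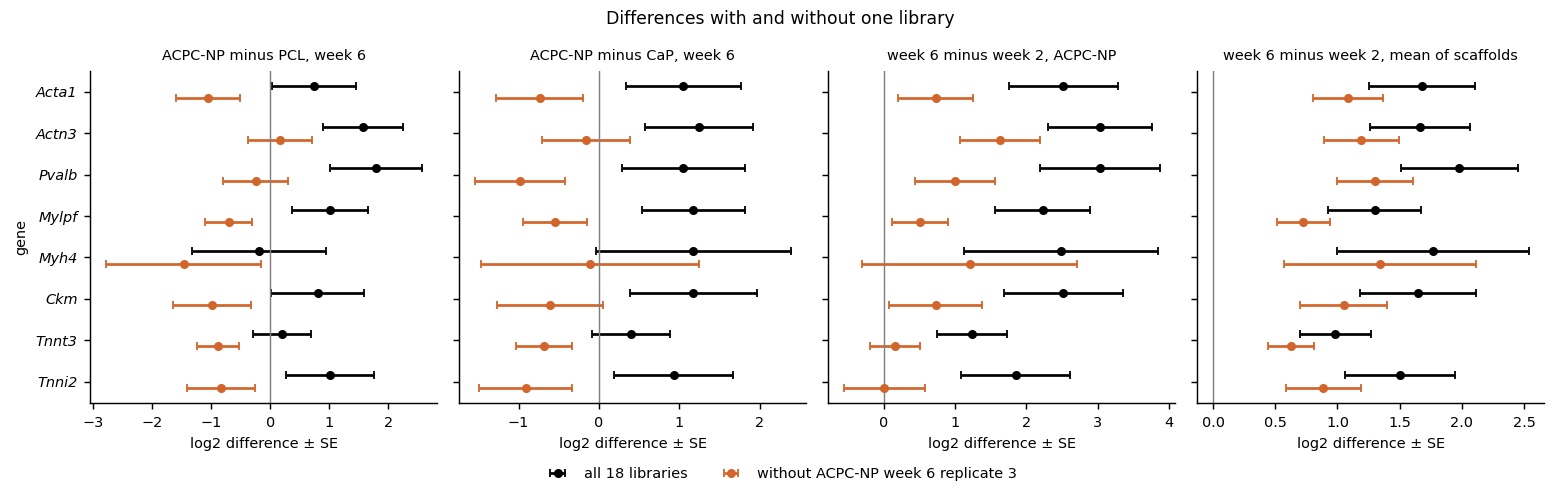
Log2 differences ± SE of the 8 genes in 4 comparisons, from edgeR with all 18 libraries (black) and without ACPC-NP week 6 replicate 3 (orange); the vertical line is 0. Against PCL and CaP at week 6 most points change side when that library is left out, and for week 6 minus week 2 over the mean of scaffolds all 8 stay above 0.

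At week 2 no member differed between scaffolds past the threshold. EdgeR called 0 members and 0% of all genes in each pair of scaffolds, and 0 members had an unadjusted p under 0.05. Of all genes, that p was reached by 15.7% for ACPC-NP minus PCL, 15.7% for ACPC-NP minus CaP and 1.55% for CaP minus PCL. DESeq2 and voom called 0 members as well, while both called some of all genes for ACPC-NP minus PCL and ACPC-NP minus CaP (counts at the end). ACPC-NP minus PCL had a median of -0.53 over the members, with Acta1 at -0.65 ± 0.73 (adjusted p = 0.705) and Actn3, the smallest p, at -0.81 ± 0.71 (adjusted p = 0.622). ACPC-NP minus CaP had a median of -0.06, with Acta1 at -0.07 ± 0.73 (adjusted p = 0.972) and Tnni2, the smallest p, at 0.62 ± 0.77 (adjusted p = 0.733). Both medians moved with ACPC-NP replicate 3, being -0.84 and -0.41 without it, and the latter was 0.30 without replicate 1, the library lowest in 7 members. CaP minus PCL had a median of -0.46, with Acta1 at -0.58 ± 0.72 and Myh4, the smallest p, at -1.64 ± 1.43 (adjusted p = 1 for both). The SEs are large beside these differences, so a p over the threshold does not show equal levels.

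A test of any difference among the 6 groups called 0 members and 0.584% of all genes, with the smallest member p for Actn3 (adjusted p = 0.107). At an unadjusted p under 0.05 it took in 6 of 8 members, all but Myh4 and Tnnt3, against 20.3% of all genes, and DESeq2 called 6 members against 13.6% of all genes. Whether the change between weeks differed between scaffolds was tested by the interaction of scaffold and week, which called 0 members and 0% of all genes. At an unadjusted p under 0.05 it took in 0 members, against 11% of all genes. DESeq2 and voom called 0 members for the interaction, while both called some of all genes (counts at the end). Its smallest member p was that of Actn3 (adjusted p = 0.488, edgeR).

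Most genes of a wider list of fast and shared muscle genes were also higher at week 6. Of 40 listed genes, 35 were in the table and 30 of these were tested, and the 5 others on the list are not analysed here. Between weeks, over the mean of scaffolds, 29 of the 30 were above 0, and the median was 1.56. Past the adjusted threshold 5 rose and none was lower. Of all 11814 genes tested, 0.686% were called in either direction, 21 higher and 60 lower. Casq1, which stores calcium, rose by 2.24 ± 0.47 (adjusted p = 0.0459), and Myh1, the heavy chain of fast 2X fibres, by 2.16 ± 0.46 (adjusted p = 0.0469). Tcap, the cap of titin at the Z-disc, rose by 2.04 ± 0.39 (adjusted p = 0.035), Myoz1 of the Z-disc by 1.88 ± 0.40 (adjusted p = 0.0469) and the calcium pump Atp2a1 by 1.73 ± 0.37 (adjusted p = 0.0469). At an unadjusted p under 0.05 the count was 23 of 30, against 14.6% of all genes in either direction. These calls lie close to the threshold: with each library left out in turn, Tcap remained called in 7 of 18 settings, Casq1 in 4, and Myh1, Myoz1 and Atp2a1 in 3 each. Leaving out ACPC-NP week 6 replicate 3 is among the settings in which all 5 remained called, with differences of 1.64, 1.48, 1.47, 1.47 and 1.23 for Casq1, Myh1, Tcap, Myoz1 and Atp2a1.

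In that library, 27 of the 35 listed genes were at their highest. Myh1 stood at 33.3 CPM there and at no more than 8.90 elsewhere, Atp2a1 at 99.5 against at most 40.5, and Casq1 at 15.2 against at most 4.49. Some genes of the list did not follow: Mybpc2 was highest in PCL week 2 replicate 2, at 161 CPM against 22.3 in ACPC-NP week 6 replicate 3, and Pygm was highest in the same PCL library, at 93.6 against 43.4. Slow fibre genes were also mostly higher at week 6, and 7 of the 14 listed were at their highest in ACPC-NP week 6 replicate 3. Of 13 tested, 12 were above 0 at week 6, and none was called by edgeR. An unadjusted p under 0.05 was found for 6 of them, against 14.6% of all genes in either direction. The median was 0.44, with Tpm3 at -0.07 ± 0.08 (adjusted p = 0.729), Tnnc1 at 0.24 ± 0.14 (adjusted p = 0.448) and Tnnt1 at 0.44 ± 0.21 (adjusted p = 0.344). These 3 had the highest levels, and the list reached 2.15 ± 0.49 for Myl2, the slow regulatory light chain of myosin (adjusted p = 0.0688). Around ACPC-NP alone the median of the slow genes was 1.098, and none was called. There 7 of 13 had an unadjusted p under 0.05, against 19.8% of all genes in either direction. Whether slow and fast genes differed was not tested. Tpm3, a tropomyosin that many cell types also make, was at 525 to 865 CPM.

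Most genes of satellite cells and myoblasts had few counts: of 16 found, 5 passed the filter, none was called between the weeks, and the median was 0.01, with Des at 0.31 ± 0.47, Cdh15 at -0.47 ± 0.22 and Heyl at -0.47 ± 0.43 (adjusted p from 0.34 to 0.79). Desmin (Des), which mature fibres also make, was the most abundant and held 60.9 of the 76.4 CPM of the list in ACPC-NP week 6 replicate 3. Pax7, the marker of satellite cells, had at most 0.416 CPM and no count in 11 libraries, where 0 counts allow at most 0.168 CPM, Myod1 at most 0.885 and Myog at most 0.364 CPM, and all 3 were highest in ACPC-NP week 6 replicate 3. The heart markers Nppa and Myl7 were at 0 in all 18 libraries, and the 7 heart markers summed to between 0.131 and 2.44 CPM, Tnnt2 being the only heart marker tested (-0.53 ± 0.60, adjusted p = 0.71).

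Markers of other tissues that lie along muscle moved with the members in part, and their part in the results was not tested. ACPC-NP week 6 replicate 3 had the highest sum for the 8 smooth muscle markers, at 231 CPM against 46.0 to 166.4 in the other libraries, with 5 of 8 genes highest there, Acta2 at 56.6 and Myh11 at 36.9 CPM among them. The 8 include desmin (Des), which skeletal muscle also makes and which stood at 60.9 CPM. The same library was highest for the 7 endothelial markers, at 328 CPM against 108.2 to 278.8, with 6 of 7 genes highest there, and for the 7 Schwann cell markers, at 174.4 against 59.8 to 160.9, with 1 of 7. Its sum for fat cell markers was 576.6 CPM, next to the highest of 672.4 in CaP week 6 replicate 1, with Fabp4 at 250.4 and Lpl at 245.6 CPM, while Adipoq was at 1.04 and Plin1 at 0, both low in every library (at most 1.31 and 0.458). For osteoblast markers it ranked 13 of 18, at 7869 CPM, the highest of its own group (4696 to 7869). The week 6 sums ran from 7189 to 10340 around PCL and from 6914 to 14440 around CaP.

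Between the weeks, over the mean of scaffolds, no endothelial or smooth muscle marker was called, with medians of -0.18 and -0.29; Pecam1, Vwf and Cdh5 lay between -0.24 and -0.04, and Smtn, Acta2 and Tagln between -0.70 and 0.10 (adjusted p from 0.453 to 0.952). Of the 7 Schwann cell markers, 6 were above 0 and none was called. An unadjusted p under 0.05 was found for 5 of them, against 14.6% of all genes in either direction. Mbp was at 0.33 ± 0.11 (adjusted p = 0.182) and Pmp22 at 0.36 ± 0.36 (adjusted p = 0.671). No fat marker was called, with Lpl at 1.19 ± 0.46 (adjusted p = 0.251), Fabp4 at 0.46 ± 0.35 and Cfd at -0.12 ± 0.15. Endothelial, tendon and bone markers went the other way. All 7 endothelial markers were below 0, from -0.37 to -0.04, as were all 6 tested tendon markers. Above 0 were 3 of 8 smooth muscle, 1 of 6 cartilage and 2 of 7 macrophage markers. Tnmd, the tendon protein tenomodulin, fell by 2.697 ± 0.44 on the log2 scale (adjusted p = 0.017, edgeR). Tnmd was low, with a mean of 0.862 CPM, from 0.0427 in ACPC-NP week 6 replicate 1 to 6.31 in CaP week 2 replicate 3. Without CaP week 2 replicate 3 its difference was -2.41 (adjusted p = 0.0407, edgeR). All 7 osteoblast markers were below 0, and Col1a1, the main collagen of bone and tendon, fell by 1.23 ± 0.24 (adjusted p = 0.035). With each library left out in turn, Tnmd remained called in 17 of 18 settings, the exception being PCL week 6 replicate 3 (adjusted p = 0.063), and Col1a1 in 6 of 18. None of the markers of cartilage, skin epithelium, macrophages, neutrophils, erythroid cells or B cells was called. In order of those lists, the highest by mean level were Col2a1 (-1.12 ± 1.05), Krt10 (-0.28 ± 0.27), Csf1r (-0.11 ± 0.15), S100a9 (0.14 ± 0.16), Hbb (0.13 ± 0.17) and Cd79b (-0.01 ± 0.16), with adjusted p from 0.644 to 0.982. The next by level were Acan at -0.84 and Comp at -1.004 for cartilage, Cd14 at -0.12 and Cd68 at -0.18 for macrophages, and S100a8 at 0.07 and Ngp at 0.26 for neutrophils. Slc4a1 was at 0.02 and Alas2 at 0.12 among erythroid markers, and Ebf1 at 0.07 among B cell markers, with adjusted p from 0.494 to 0.967 over these genes.

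**Figure D5:**
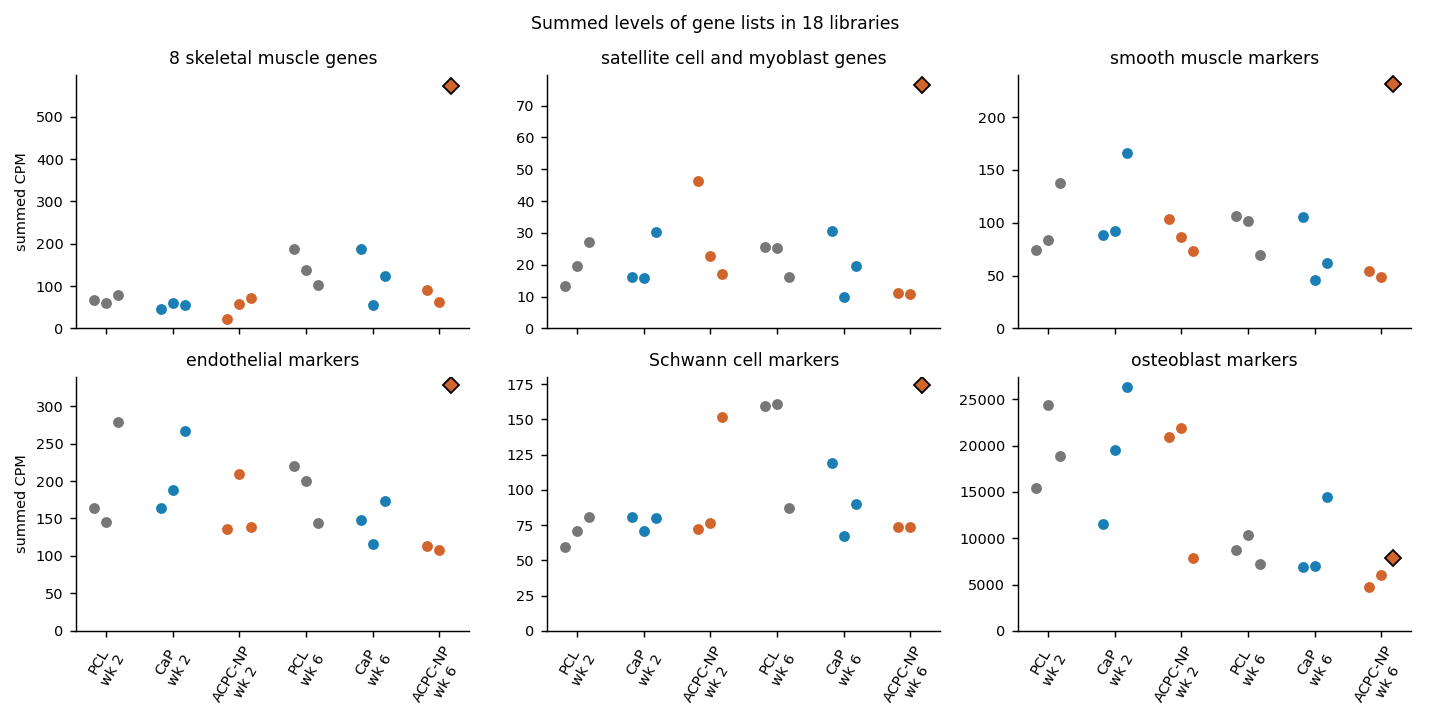
Summed CPM in each library of the 8 muscle genes, satellite cell and myoblast genes, and markers of smooth muscle, endothelium, Schwann cells and osteoblasts, by scaffold and week; each axis starts at 0 and the diamond is ACPC-NP week 6 replicate 3. That library is highest in 5 of the 6 panels and low in the osteoblast panel, at 7869 CPM; Des holds 60.9 of its 76.4 CPM in the satellite cell panel and is also in the smooth muscle panel.

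Some counts carry uncertainty of assignment. Acta1 is close in coding sequence to the other actins and Myh4 to its neighbour Myh1 in a cluster of heavy chain genes, so reads could be split or lost between copies. In the GRCr8 annotation the span of Tnni2 overlaps those of Ctsd, Ifitm10 and Syt8, and the strand setting of the counting is not given in the sources used here. Where exons overlap, reads might not be told apart. Whether exons overlap on the build of the counts was not tested.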

How the data were processed

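RNA of 18 libraries was sequenced, 3 for each scaffold and week. Per the submitters' processing notes the tools were bcl2fastq 2.20.0, STAR 2.7.9a, Subread 2.0.1 and featureCounts, on build Rnor_6.0; for annotation, strandedness and read filters the value is not given in the sources used here. The authors deposited unnormalised read counts per gene symbol. They also deposited a signal table, each value being the count divided by a size factor per library (0.743 to 1.21), which served only as a check. No pair of libraries in a group was a duplicate (lowest chi-square per degree of freedom 30.5 over 18 pairs).

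EdgeR 4.0.16 in R 4.3.3 was run on the counts: filterByExpr (minimum count 10, minimum total 15) kept 11814 genes with 99.98% of counts, TMM normalisation, 1 term per group and a robust quasi-likelihood test with 12 residual degrees of freedom. Benjamini-Hochberg adjustment ran over all tested genes within each of 12 comparisons, with a threshold of 0.05. The biological coefficient of variation was 26.0%. CPM was scaled to TMM library sizes and log2 CPM used a prior count of 2. On data simulated for week 6 minus week 2 around PCL, the test recovered 53 of 100 genes set to a 2-fold change and 86 of 100 set to 4-fold, with 4 false calls among 11748 genes. The changed genes were drawn at random from all genes, and no library was set to deviate. These rates do not carry over to the members, whose SD within groups had a median of 0.99 against 0.26 over all genes. Alternatives were DESeq2 1.42.0, voom with sample quality weights (limma 3.58.1), DESeq2 size factors, no low-count filter, no robust option, the replicate number as a block, a fit restricted to the compared groups, and libraries left out.

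The 8 members and the other lists were chosen with earlier results of these data known. All members are named; in each comparison Acta1 and the member with the smallest p have full statistics; of other lists, genes past the threshold, otherwise the 3 highest by mean CPM, and further genes were named after their values were seen (Myh1, Atp2a1 and Casq1 by library, Mybpc2, Pygm, Pax7, Myod1, Myog, Nppa, Myl7, Myh11, Myl2, Adipoq, Plin1). Some genes that this rule picks are not reported here. Lists are described by counts and medians, with no test of a list.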

Additional observations from a re-analysis of the deposited data

How the results depend on the processing

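The 8 differences between weeks, over the mean of scaffolds, were above 0 under every alternative run, but with voom their median was 0.98 and Myh4 was at 0.0013. Around PCL voom gave a median of 0.58, with 7 of 8 above 0 and Myh4 at -1.88. Over the mean of scaffolds edgeR called 0 members, against 7 with DESeq2 and 1 with voom. In that same comparison it called 4 without replicate 3 of ACPC-NP at both weeks, and 0 to 2 with 1 library left out. DESeq2 called 5 members between weeks around ACPC-NP and 6 for any difference among groups. Other settings called 0 members, as in the edgeR result.

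ACPC-NP against the other scaffolds at week 6 turned with 1 library. With 1 library left out, the median of the members ran from -0.86 to 1.37 against PCL and from -0.65 to 1.615 against CaP, and without replicate 3 of ACPC-NP at both weeks it was -0.84 and -0.65. Acta1 ran from -1.06 to 1.21 against PCL, being -0.16 with voom and -1.03 without both replicates 3. Against CaP, Acta1 ran from -0.74 to 1.60 and Actn3 from -0.16 to 1.88, at -0.74 and -0.16 without both. Around ACPC-NP the median between weeks ran from 0.73 to 3.00, and was 1.01 without both. The spread within groups was 0.67 without ACPC-NP week 6 replicate 3. At week 2 Acta1 in ACPC-NP minus CaP ran from -0.39 to 0.31. The Acta1 difference, CaP minus PCL, week 6, ran from -0.828 to 0.0796, and that of Myh4 was 1.41 with voom, whose cause was not tested.

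Counts over all genes moved most, and the cause was not tested. For the mean of scaffolds (81), they were 382 with DESeq2, 1632 with voom, 49 with the replicate block, 259 without both replicates 3, and from 2 without PCL week 6 replicate 3 to 179 without ACPC-NP week 6 replicate 3. For any difference (69), they were 1606, 3617, 2 with the block, 1 without both and 0 to 842, and for the interaction (0) 162, 977 and 0 to 52. At week 2, DESeq2, voom and libraries left out gave 634, 309 and 0 to 877 for ACPC-NP minus PCL, and 595, 376 and 0 to 893 for ACPC-NP minus CaP, against 0. At week 6, ACPC-NP minus PCL (0) had 901, 4056, 427 with the block and 0 to 1787, ACPC-NP minus CaP (0) had 23, 71 and 1 with only its own groups in the fit, and CaP minus PCL had 0 to 1. Between weeks, ACPC-NP (1) had 785, 1387, 0 with the block, with its own groups alone or without both, and 0 to 882; CaP (0) had 5 with DESeq2; PCL (0) had 36, 1745, 1 with the block, 2 without both and 0 to 52.

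Of the other muscle genes called, Myh1, Myoz1 and Atp2a1 passed the threshold neither without the low-count filter (adjusted p = 0.0579, 0.0533 and 0.0592, edgeR) nor with the replicate block (0.0804, 0.0794 and 0.0783), and Casq1 not with the block (0.0571). Replicate numbers recur in each group. Over 45 pairs of same-numbered libraries the correlation of deviations ran from -0.327 to 0.42 with a median of 0.0262, and 18 pairs lay above 0.1. Of 18 libraries, 7 correlated best with their own number. Whether the numbers mark a pairing was not tested. With the block 0 members were called between weeks, with a median of 1.57. Depth limits Myh4 above all, at 0 to 42 counts.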
